A study of Mus musculus with 139 samples.

Results

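Ciliated cell and axoneme genes encode the beating apparatus of motile cilia and the factors that build it. A list of 44 such genes was followed in mouse lung: transcription regulators, dynein arms, radial spokes, the central pair and the proteins that line and space the microtubule doublets. On the arrays 39 of the 44 were measured, among 22180 genes in all. A gene counted as measured where a feature (the set of probes summarised to 1 value) was paired with its symbol alone, and the feature with the highest mean was kept where a gene had several. Dnah3, Dnah12 and Ak9 had no such feature, and Cfap54 and Ccdc39 had only a feature shared with another symbol, so these 5 genes carry no value here.

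The series asked how lungs respond over a year to multi-walled carbon nanotubes (MWCNT) or to crocidolite asbestos, a fibrous amphibole mineral. Male mice of the strain written as C57BL/J6, 7 weeks old when obtained, were anesthetized and given 50 µL of liquid at the base of the tongue, from where it was breathed in. The control groups received dispersion medium (DM), which is phosphate-buffered saline with glucose, mouse serum albumin and a phospholipid. The other groups received 1, 10, 40 or 80 µg of MWCNT or 120 µg of crocidolite, each suspended in the same medium, so every mouse in the series received DM. RNA from lung tissue was measured 1, 6 or 12 months later, in 18 groups. Groups held 8 mice, apart from 6 at 1 µg and 12 months, 7 with crocidolite at 12 months and 5 at 1 month. The labels number the mice, so replicates are separate animals. Mice were also older at later times, so time after dosing and age cannot be told apart.

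Airway ciliated cells line the trachea and bronchioles and move mucus by the coordinated beat of many cilia per cell. Foxj1 is the transcription factor that switches on the motile cilium programme. RFX factors such as Rfx2 and Rfx3 bind a DNA element called the X-box in promoters of ciliary genes, while Mcidas and Ccno drive the multiplication of basal bodies in cells that are becoming multiciliated. The axoneme itself is a cylinder of microtubule doublets around a central pair, and dynein arms on the doublets generate the beat.

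Promoter sequence was examined because it shows a feature of the genes that the choice of members did not use. RefSeq promoter windows of the assembly GRCm38.p6, from 250 bases before to 50 bases after each gene's start, were on hand for 34 of the 39 measured genes, in 39 windows. Foxj1, Rsph1, Rsph4a, Tppp3 and Wdr78 were not among them. Each strand was searched for GTTGCC, the arm of the X-box. These stretches are shown because they hold the arm in genes of different roles. Capitals mark GTTGCC or its reverse complement GGCAAC, and each stretch is read 5′ to 3′ along the gene's own strand.
Hydin, chr8:110266917-110266976, plus strand, 60 to 1 bases before the start: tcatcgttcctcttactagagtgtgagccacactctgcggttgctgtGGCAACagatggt
Tekt1, chr11:72361883-72361942, minus strand, 60 to 1 bases before the start: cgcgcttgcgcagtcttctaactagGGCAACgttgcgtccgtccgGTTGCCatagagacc
Dnaic2, chr11:114727359-114727418, plus strand, 60 to 1 bases before the start: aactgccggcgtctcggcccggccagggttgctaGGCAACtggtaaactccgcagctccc
Spag16, chr1:69826840-69826899, plus strand, 130 to 71 bases before the start: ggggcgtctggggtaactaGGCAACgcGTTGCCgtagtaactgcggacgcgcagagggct
Rfx2, chr17:56831092-56831151, minus strand, 143 to 84 bases before the start: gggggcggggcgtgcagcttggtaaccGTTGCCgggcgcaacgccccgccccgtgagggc
Ccno, chr13:112987556-112987615, plus strand, from 246 bases before the start: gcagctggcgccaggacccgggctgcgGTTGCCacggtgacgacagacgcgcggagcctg
Mcidas, chr13:112993646-112993705, plus strand, 222 to 163 bases before the start: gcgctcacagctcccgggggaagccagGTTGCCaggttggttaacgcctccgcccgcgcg

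The arm was present in 19 of the 39 windows (48.7%), belonging to 18 genes, against 4111 of 32851 RefSeq promoter windows of the same length (12.5%). Among genes outside the list, it was in 43.8% of windows of other axoneme and motility genes, 45.5% of those for intraflagellar transport (the transport system inside the cilium) and 7.14% of those for club cell markers. A strict form of the full X-box palindrome (GTTNCC, then 2 free bases, then GGNAAC) was in 0 member windows and in 0.451% of all windows. Forms with other mismatches or another spacing between the arms were not counted, so this is no count of X-boxes. A forkhead motif, TGTTTAC, the type of site bound by Foxj1's family, was in 5.13% of member windows, those of Ak7 and Cfap43, and in 3.65% of all windows. These are matches of letters in a fixed window and say nothing of binding.

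All levels below are log2 values, so a difference of 1 is a doubling, and levels of different genes are not compared because each rests on its own probes. Differences come from a limma model over all mice and are given with their standard error (SE). A gene was called where its two-sided p, adjusted by Benjamini-Hochberg over the 22180 genes, was under 0.05. Counts of members at an unadjusted p under 0.05 take both directions together. Shares of all genes printed beside them are for adjusted calls, so they are no background for those counts. Sntn, Tmem212, Ccdc153 and Fam183b, genes of ciliated cells outside the list, had DM means at 1 month of 6.66, 7.09, 7.56 and 6.21. No detection call was used, so the presence of ciliated cells was not tested. Within groups, the mean of 26 other airway ciliated cell genes correlated at 0.94 with that of the members over all mice, which share arrays. Since this is whole lung, fewer cells of a type and less RNA per cell cannot be told apart.

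Some arrays were marked for separate checks. The 10 arrays of lowest median correlation with the other arrays had 0.955 to 0.969, against 0.970 to 0.986 in the rest, without a clear gap. They include 2 of the 5 crocidolite arrays at 1 month and 1 DM array at each of 1 and 12 months. Within groups, this median correlation itself correlated at 0.66 with the mean of the members. Leaving out these 10 arrays therefore tends to leave out mice of low member mean. Marked separately, 16 arrays were high in Acta1 (skeletal muscle actin) or Krt4 (a squamous keratin), and 38 carried the word replacement in their titles, 4 of 8 in DM at 1 month and 5 of 7 in crocidolite at 12 months. Each mark was set without regard to the others, so an array can carry several. Results that rest on these arrays are given with and without them. Counts under such alternatives come without the share of all genes called under each. A moved count may therefore not be particular to the members.

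The mean over the 39 genes was lowest at 1 month and highest at 12 months in DM and in each exposure. In DM lungs the lowest, median and highest mouse had 5.76, 6.08 and 6.38 at 1 month, 6.26, 6.42 and 6.70 by 6 months, and 6.10, 6.55 and 6.79 by 12 months. With 1 µg MWCNT the group means in order of time were 6.22 ± 0.15 (SD), 6.38 ± 0.30 and 6.70 ± 0.12. With 10 µg they were 6.20 ± 0.27, 6.46 ± 0.17 and 6.69 ± 0.22, with 40 µg 6.34 ± 0.23, 6.64 ± 0.11 and 6.77 ± 0.32, and with 80 µg 6.36 ± 0.20, 6.60 ± 0.18 and 6.78 ± 0.32. Groups of neighbouring time overlapped in DM, and the single low DM mouse at 12 months, at 6.10, is an array of low correlation. The 5 crocidolite mice at 1 month were at 6.37, 6.29, 6.60, 5.41 and 6.08, a wider spread (SD 0.45) than in any other group. By 12 months the crocidolite lungs were at lowest 6.54, median 6.92 and highest 7.17, the highest mean (6.92 ± 0.20) among the 18 groups. Neighbours in this order, such as 80 µg (6.78) and 40 µg (6.77) at 12 months, lie within each other's spread.

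**Figure D1:**
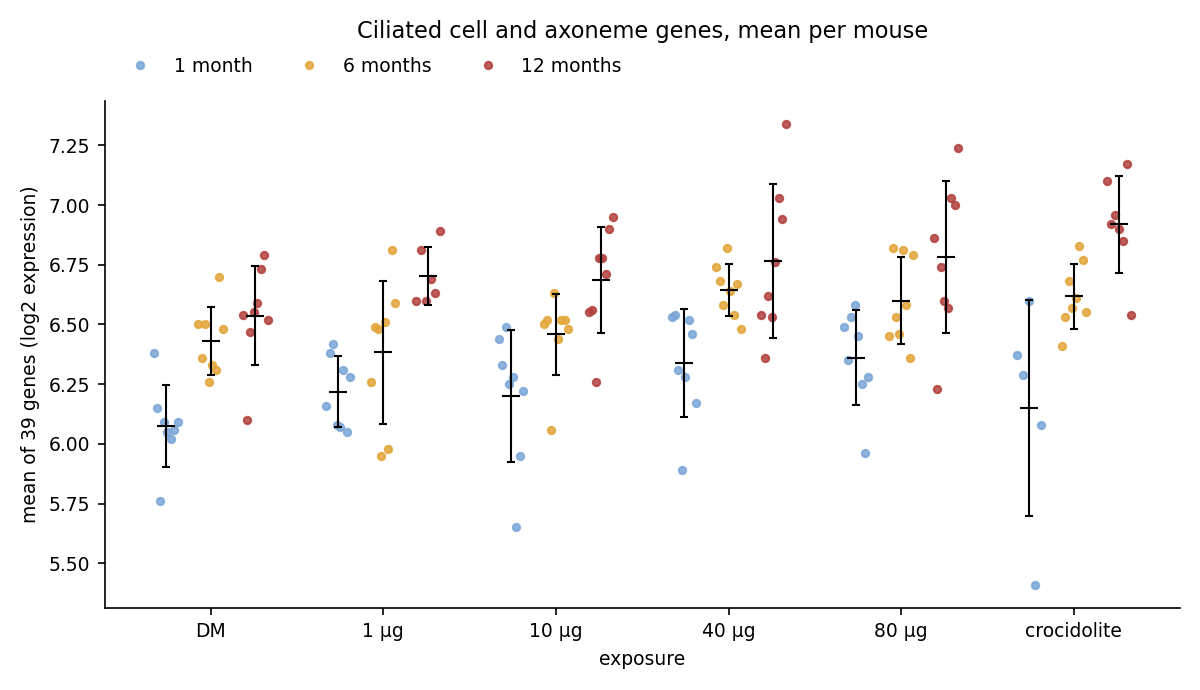
Mean log2 level over the 39 measured genes in each mouse (points) by treatment and month, with group means. The means rise from 6.08 to 6.54 in DM and from 6.15 to 6.92 with crocidolite, and the spread is widest in the 5 crocidolite mice at 1 month.

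In DM lungs, 16 of the 39 genes were higher at 12 than at 1 month and 0 were lower, where 0.681% of all genes were called higher. This rise was known when the genes were chosen, so its values describe these mice and are no independent evidence. The median difference of the members was 0.51, against 0.00 over all genes. All 5 measured outer arm genes were called, 4 of 5 central pair genes, 3 of 6 inner arm genes, 2 of 5 tektin and doublet lumen genes, 1 of 4 radial spoke genes and Ak7, an adenylate kinase of cilia. None of the 5 regulators and none of the 5 ruler, nexin and tether genes was called, although the latter differed by 0.47 to 0.66. The count was 25 without the 10 arrays of low correlation, 2 among arrays whose titles lack the word replacement, and 0 among those that carry it. The word is in 4 of 8 DM titles at 1 month and 3 of 8 at 12 months, so both subsets hold few mice. The median difference of the members stayed between 0.41 and 0.65 under all 17 alternatives.

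Rsph1, a radial spoke head protein, differed most in DM. Its levels were lowest 6.09, median 6.65 and highest 6.92 at 1 month, then 6.66, 7.07 and 7.28 at 6 months and 7.06, 7.48 and 7.73 at 12 months. Every mouse at 12 months lay above every mouse at 1 month, and the difference was 0.87 ± 0.15 (SE), adjusted p = 0.000237. Such separation was also found for Dnali1, an inner arm light intermediate chain, and Tekt1, a tektin of the doublet wall, 3 members in all, where 0.135% of all genes separated that way. Zmynd10, which helps assemble dynein arms in the cytoplasm before they enter the cilium, had the next largest difference, 0.72 ± 0.23, and missed the threshold (adjusted p = 0.115). Its lowest, median and highest levels were 4.83, 5.55 and 5.79 at 1 month and 5.37, 6.29 and 6.50 at 12 months, ranges that overlap, and it was called without the 10 arrays of low correlation (0.74). Among called genes Dnah6, an inner arm heavy chain, came after Rsph1 with 0.68 ± 0.14 (adjusted p = 0.00179), from a mean of 7.17 ± 0.21 (SD, n = 8) to 7.85 ± 0.20.

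The 5 outer arm genes differed by similar amounts in DM, 0.51 to 0.58. Dnah5, an outer arm heavy chain, was at lowest 6.71, median 7.11 and highest 7.63 at 1 month and at 7.45, 7.62 and 8.05 at 12 months, a range that overlaps. The difference was 0.56 ± 0.13 (adjusted p = 0.0083). Dnah9, a heavy chain of the outer part of the cilium, went from a median of 5.87 (5.57 to 6.23) to 6.46 (6.01 to 6.72), a difference of 0.58 (adjusted p = 0.0144). Dnaic1 and Dnaic2, the intermediate chains that join the heavy chains to the doublet, differed by 0.55 and 0.54, and Dnah11, a heavy chain of the inner part of the cilium, by 0.51.

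In the central pair, Spef2 (0.60), Hydin (0.56), Spag17 (0.56) and Spag16 (0.48) were called in DM and Spag6l (0.44, adjusted p = 0.124) was not. Hydin, a large protein of a central pair projection, was at lowest 6.47, median 6.87 and highest 7.10 at 1 month, at 7.17, 7.37 and 7.61 at 6 months, and at 7.09, 7.39 and 7.59 at 12 months. All mice at 6 months were above all at 1 month, while the lowest mouse at 12 months fell just inside the range of 1 month. This held at 6 months for 4 members, Hydin, Dnah1, Dnah2 and Drc1, where 0.216% of all genes separated that way. Hydin has a feature of lower mean as well, and with the mean of its features the difference was 0.23 (adjusted p = 0.323), so its value depends on which probes are read. Dnah2, Spag17 and Tekt2 also have 2 features each, and their values here are those of the feature of highest mean. Tekt1 was at lowest 5.42, median 5.72 and highest 5.93 at 1 month and 5.97, 6.17 and 6.40 at 12 months, a difference of 0.46 ± 0.11 (adjusted p = 0.0185).

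The regulators were not called in DM. Foxj1 was at lowest 6.31, median 6.56 and highest 7.13 at 1 month and 6.77, 7.08 and 7.35 at 12 months, overlapping ranges whose difference of 0.47 ± 0.15 missed the threshold (adjusted p = 0.107). Rfx3 differed by 0.23, Ccno by 0.20, Mcidas by -0.03 and Rfx2 by -0.21. Tppp3, a tubulin-binding protein abundant in ciliated cells, was at lowest 9.44, median 10.00 and highest 10.29 at 1 month and 9.54, 9.97 and 10.20 at 12 months, a difference of -0.05 ± 0.13 whose sign turned under other choices of arrays.

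Much of the DM difference was in place by 6 months. From 1 to 6 months the median member difference was 0.40 and 3 members were called higher, all inner arm heavy chains, where 0.117% of all genes were: Dnah2 (0.64), Dnah6 (0.62) and Dnah1 (0.61). Their number was 2 without the 10 arrays of low correlation, 0 without arrays whose titles carry the word replacement or with that word as a covariate, and 10 with array weights. From 6 to 12 months the median was 0.11 and limma called 0 members (0.0361% of all genes higher), with 5 at an unadjusted p under 0.05. These 5 include Rfx2, which was lower (-0.31 ± 0.15).

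**Figure D2:**
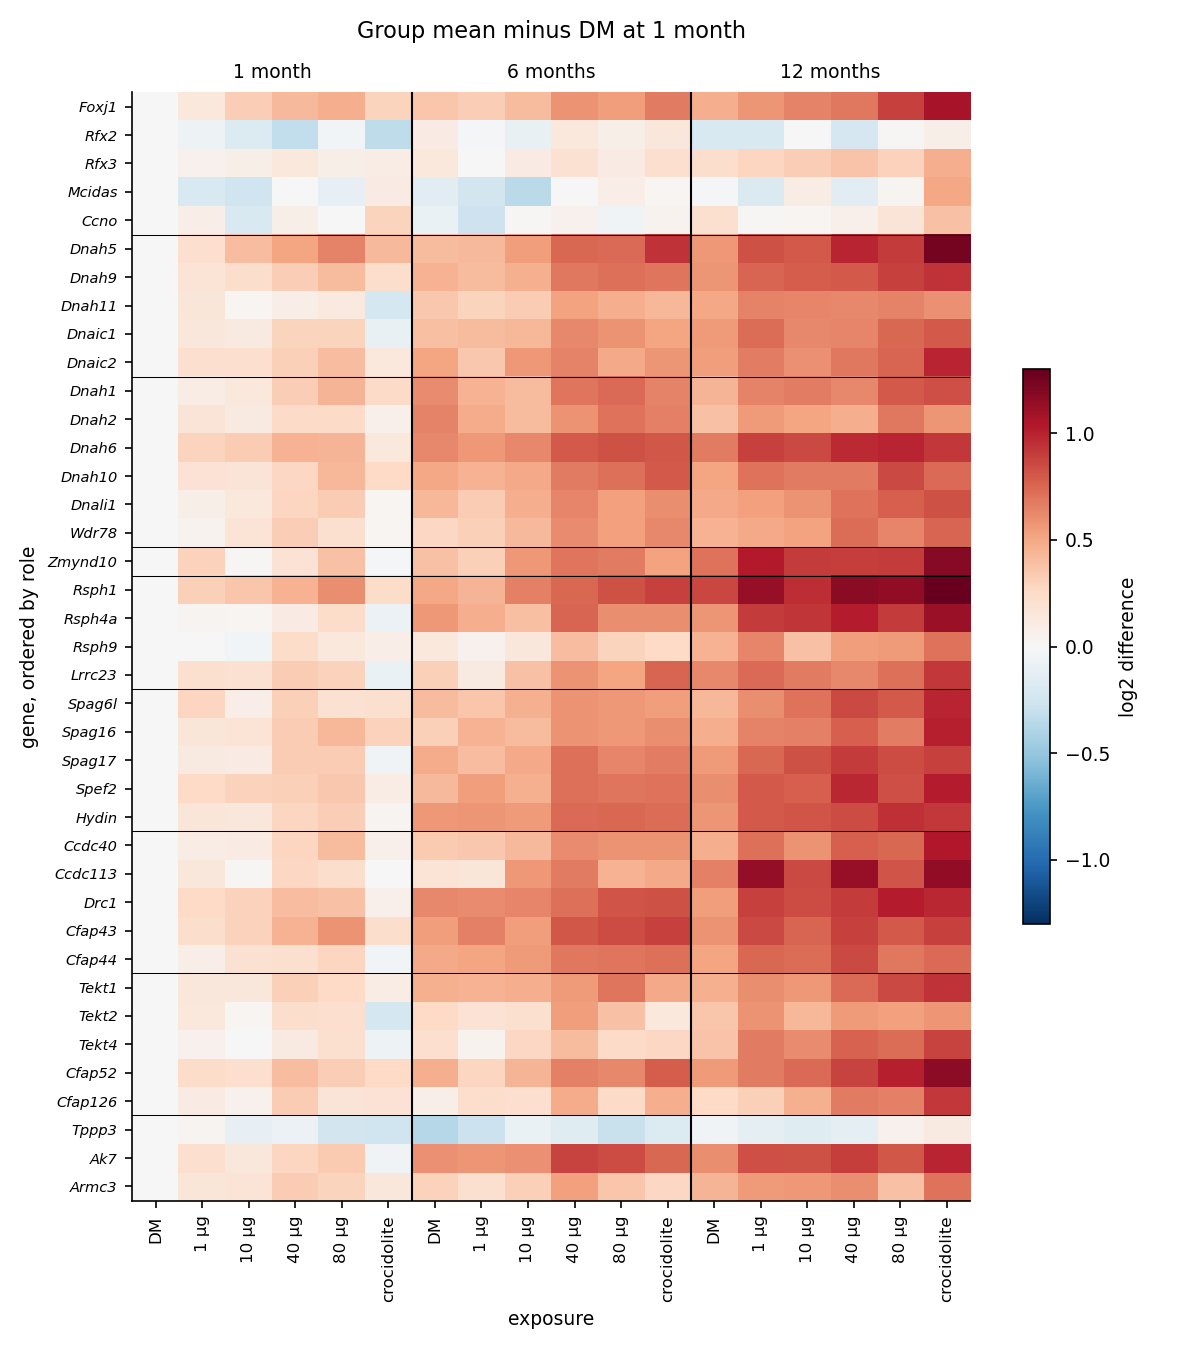
Difference of each group's mean from DM at 1 month (log2) for the 39 measured genes, ordered by role, in the 18 groups. Columns at 12 months are the most raised for most axoneme genes, whereas Tppp3, Mcidas, Ccno and Rfx2 vary in sign from group to group (Tppp3 differs by -0.37 in DM at 6 months).

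The exposed lungs are other mice, and their change over time shares no sample with that of DM. The members and tests were still chosen with earlier results of these data known, so these values are a description too. Averaged with equal weight over the 5 exposures, 35 of 39 members were higher at 12 than at 1 month and 0 were lower, with a median difference of 0.55. Over all genes 12.8% were called higher here, in a comparison that rests on many more mice than that of DM. All measured genes of the outer arm (5), inner arm (6), radial spoke (4), central pair (5), ruler, nexin and tether group (5) and tektin group (5) were called. The 4 genes not called were Mcidas (0.15 ± 0.09, adjusted p = 0.222), Rfx2 (0.12 ± 0.07), Ccno (0.08 ± 0.08) and Tppp3 (0.08 ± 0.06, 95% interval -0.03 to 0.20).

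The largest differences were in Rsph4a, another spoke head protein (0.91 ± 0.10, adjusted p = 4.07e-13), and Ccdc113, a coiled-coil protein of cilia (0.89 ± 0.09, adjusted p = 1.14e-14). Zmynd10 differed by 0.81 ± 0.11, and Rsph1 by 0.77 ± 0.07. With 1 µg MWCNT, Rsph1 was at lowest 6.58, median 6.84 and highest 7.13 at 1 month and 7.29, 7.71 and 8.08 at 12 months, with no overlap. Dnah5 in the same lungs was at 7.10, 7.33 and 7.55 and then at 7.78, 7.91 and 8.15, again without overlap. Hydin differed by 0.68 ± 0.06 over the exposures (0.30 with the mean of its features), Tekt1 by 0.55 ± 0.05 and Dnah5 by 0.52 ± 0.06. Among regulators Foxj1 (0.44 ± 0.07, adjusted p = 1.55e-07) and Rfx3 (0.26 ± 0.06, adjusted p = 0.000186) were called.

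In the exposed lungs 30 members were higher at 6 than at 1 month (4.7% of all genes) and 28 at 12 than at 6 months (11.3%), with medians of 0.32 and 0.22. Ak7 (0.54 ± 0.08) and Rsph4a (0.50 ± 0.10) led the earlier step, and Ccdc113 (0.56 ± 0.09) and Tekt4 (0.48 ± 0.07), another tektin, the later. Rfx2 was called only in the earlier step (0.24 ± 0.07, adjusted p = 0.0116) and differed by -0.12 in the later. The rise in exposed lungs minus that in DM had a median of 0.03 over the members, and limma called 0 members and 0% of all genes, with 1 member at an unadjusted p under 0.05. The widest gap was for Rsph4a, 0.35 ± 0.24.

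Each exposure was also followed alone from 1 to 12 months. Higher at 12 months were 20 members with 1 µg (1.08% of all genes), 22 with 10 µg (1.53%), 23 with 40 µg (2.46%), 16 with 80 µg (1.36%) and 32 with crocidolite (3.28%). The median differences were 0.53, 0.48, 0.44, 0.44 and 0.80. The ranges at 1 and 12 months did not overlap for 18 members with 1 µg (0.753% of all genes), 2 with 10 µg (0.18%), 0 with 40 µg (0.0766%), 0 with 80 µg (0.167%) and 10 with crocidolite (1.32%).

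The crocidolite count depended on which mice at 1 month were kept. Without the 10 arrays of low correlation it fell from 32 to 9, and without the lowest crocidolite mouse at 1 month alone to 19. Both choices also leave fewer mice. Over all 22 alternatives the count ran from 8 to 34, and the median difference with crocidolite stayed between 0.52 and 0.95. With crocidolite 14 members were higher at 6 than at 1 month (0.875% of all genes), and without the lowest crocidolite mouse at 1 month, or without the 10 arrays, 0 were. Over all alternatives this count ran from 0 to 24. In the 4 MWCNT doses limma called 0 members from 1 to 6 months (0.00451%, 0.0135%, 0.00902% and 0.018% of all genes were higher, in order of dose), with 15, 19, 23 and 15 at an unadjusted p under 0.05. With 1 µg these include Ccno (-0.36) and Tppp3 (-0.32), which were lower. The share of all genes at that unadjusted threshold is not given. The 80 µg count from 1 to 12 months was 28 without the 10 arrays, 28 with array weights, 29 with the mean of the olfactory receptor genes (a gauge of array background) as a covariate, 5 in a model of its own groups alone and 0 among arrays whose titles carry the word replacement. The 10 µg count was 14 without the 10 arrays, 13 after centring or quantile normalization, 12 with that covariate and 4 with its groups alone, and the 40 µg count was 7 with its groups alone. Over all alternatives the counts from 1 to 12 months ran from 11 to 29 with 1 µg and 4 to 29 with 10 µg. They ran from 7 to 33 with 40 µg and 0 to 29 with 80 µg. The median differences stayed between 0.37 and 0.70 in the 4 doses under all these alternatives. The mouse with 2 arrays is in the 1 µg group at 1 month, and the count there was 24 or 11 with either array in place of their mean. Rsph4a with crocidolite was at 7.46, 7.17, 7.81, 5.44 and 6.86 in the 5 mice at 1 month and at lowest 7.92, median 8.05 and highest 8.99 at 12 months, a difference of 1.21 ± 0.25.

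**Figure D3:**
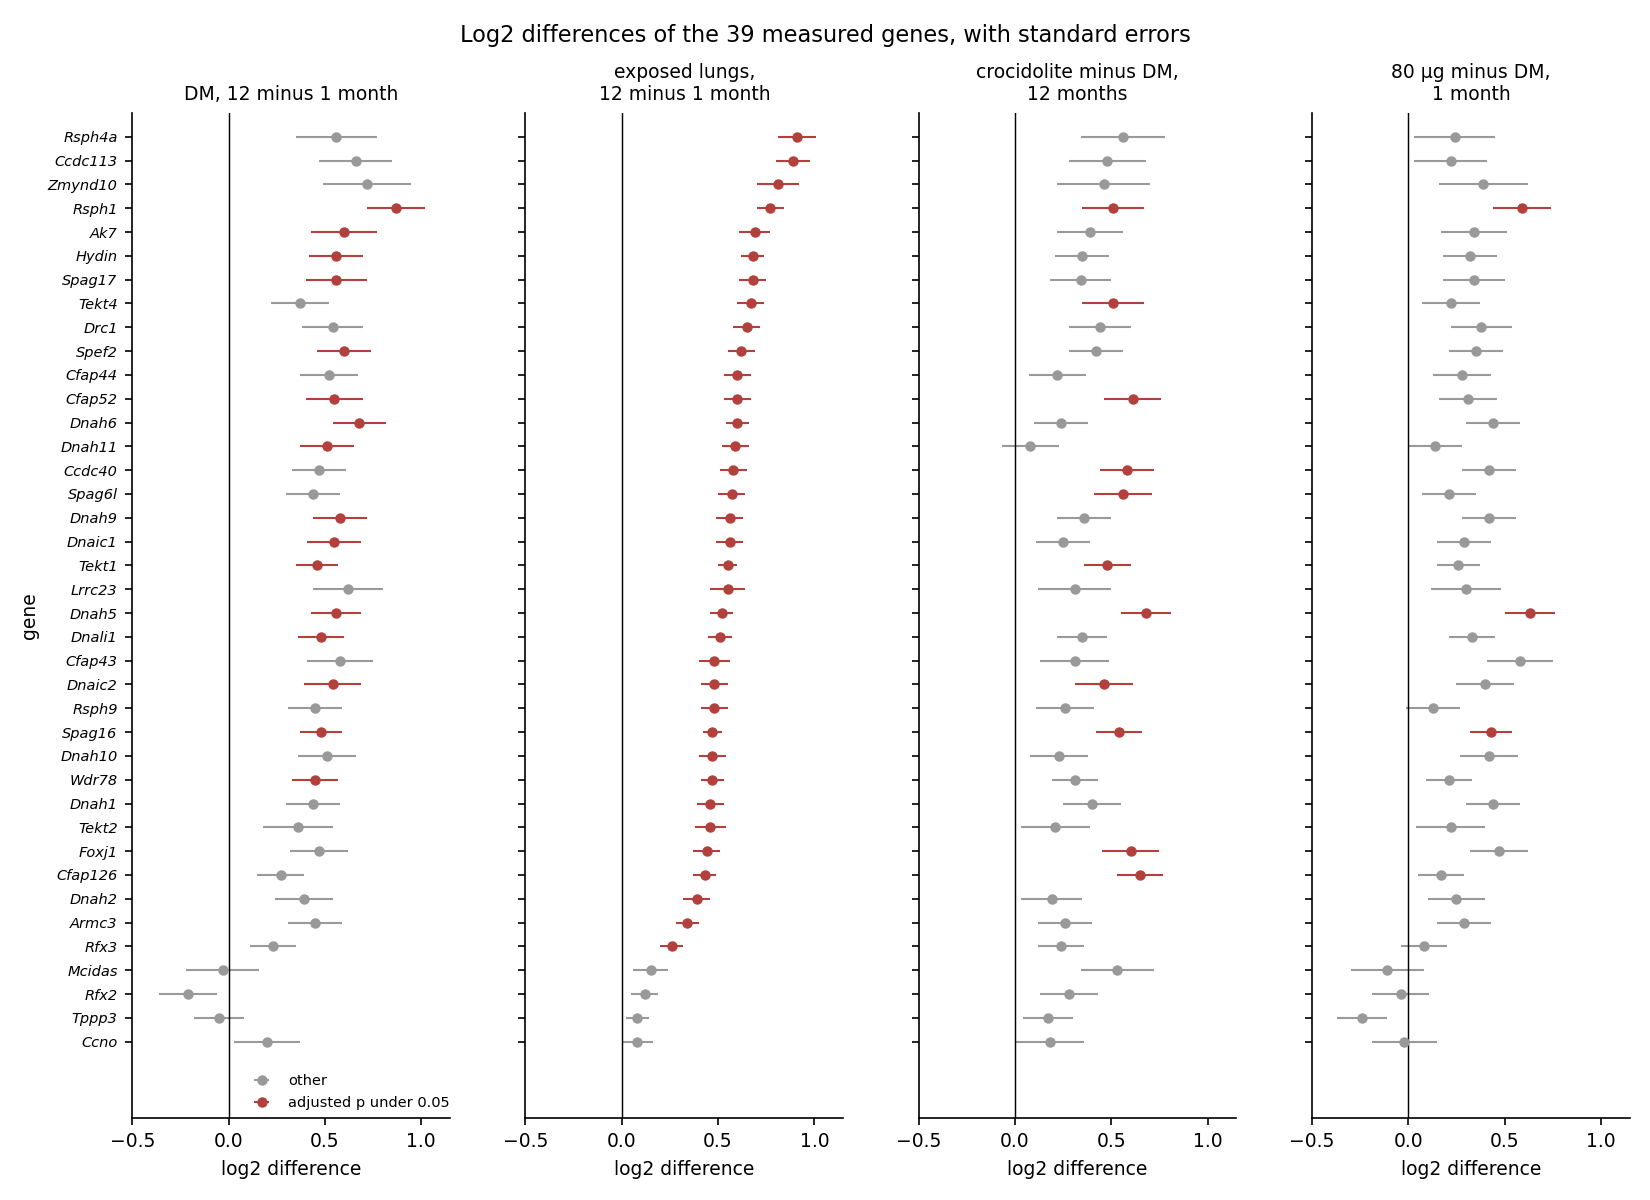
Differences in log2 level with SE for each of the 39 measured genes in 4 comparisons, with genes called by limma in red. Calls number 16 in DM and 35 in exposed lungs for 12 against 1 month, 11 for crocidolite against DM at 12 months and 3 for 80 µg against DM at 1 month.

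Crocidolite was compared with DM at each time, and each exposure shares those DM mice with the others. At 12 months 11 members were higher with crocidolite and 0 lower, where 4.31% of all genes were higher, and the median difference was 0.36. At 6 months 2 were higher (1.45% of all genes), Dnah5 by 0.54 ± 0.13 and Cfap126 by 0.38 ± 0.12, with a median of 0.17. At 1 month limma called 0 (2.93% of all genes were higher), with 3 at an unadjusted p under 0.05 and a median of 0.09. These 3 include Rfx2, which was lower (-0.34 ± 0.17). Without the mouse at 5.41 the median was 0.27, without the 10 arrays of low correlation 0.33, and without the highest mouse (6.60) -0.04. There Dnah5 had the largest difference, 0.42 ± 0.15 (adjusted p = 0.0749).

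At 12 months the called genes were spread over the roles: 4 of 5 in the tektin and doublet lumen group, 2 of 5 each in the outer arm and the central pair, 1 each among spokes, regulators and the ruler group, and 0 of 6 in the inner arm. Dnah5 was at lowest 7.84, median 8.35 and highest 8.76 with crocidolite, against 7.45, 7.62 and 8.05 in DM. The groups overlapped in part, and the difference was 0.68 ± 0.13 (adjusted p = 0.000115). Cfap126, a protein of the doublet lumen also named Flattop, was at 5.90, 6.22 and 6.37 against 5.13, 5.53 and 5.86, the only member whose mice did not overlap (1.43% of all genes). Its difference was 0.65 ± 0.12 (adjusted p = 4.4e-05).

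Foxj1 was at lowest 6.92, median 7.77 and highest 8.03 with crocidolite at 12 months against 6.77, 7.08 and 7.35 in DM. Most crocidolite mice lay above the DM range, and the difference was 0.60 ± 0.15 (adjusted p = 0.00582). It was 0.74 among arrays whose titles carry the word replacement and 0.13 among those that do not, and the count of 11 was 1 in either subset. The word is in 5 of 7 crocidolite and 3 of 8 DM titles at 12 months, so both subsets are small. The only crocidolite mice without it had Foxj1 at 7.41 and 6.92. Also higher were Cfap52 (0.61), Ccdc40, part of the ruler that spaces the dynein arms (0.58), Spag6l (0.56), Spag16 (0.54), Rsph1 (0.51), Tekt4 (0.51), Tekt1 (0.48) and Dnaic2 (0.46). Mcidas differed by 0.53 (adjusted p = 0.0814), Tppp3 by 0.17 and Dnah11 by 0.08. The crocidolite effect at 12 months minus that at 1 month had a median of 0.32 over the members, and limma called 0 members (0.0541% of all genes in either direction), with 6 at an unadjusted p under 0.05. This median was 0.12 without the crocidolite mouse at 1 month with a member mean of 5.41, and -0.01 without the 10 arrays of low correlation.

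With 80 µg MWCNT at 1 month, 3 members were higher than in DM (1.69% of all genes) and the median was 0.30. In the same comparison 9 of 11 mucous cell genes were higher (median 1.54), among them the airway mucin Muc5b (1.54 ± 0.17), as were 4 of 9 alveolar type 2 genes (0.26), and their part in the ciliary values was not tested. Dnah5 was at lowest 7.34, median 7.77 and highest 8.06, against 6.71, 7.11 and 7.63, overlapping ranges with a difference of 0.63 ± 0.13 (adjusted p = 0.000443). Rsph1 differed by 0.59 ± 0.15 and Spag16 by 0.43 ± 0.11, while Tppp3 differed by -0.24 and Mcidas by -0.11. No member separated all mice from those of DM at 1 month (0 members, 0.775% of all genes) or at 12 months (0 members, 0.0992%). At 6 and 12 months limma called 0 members (0.803% and 0.158% of all genes were higher), with 7 and 16 at an unadjusted p under 0.05 and medians of 0.19 and 0.24. With 40 µg, Dnah5 alone was called at 1 month (0.51 ± 0.13, adjusted p = 0.0255, 0.555% of all genes higher). At 6 and 12 months 0 members were (0.207% and 0.0271%), with 6 and 17 at an unadjusted p under 0.05. With 10 µg limma called 0 members at every time (0.018%, 0.00451% and 0% of all genes higher), with 5, 1 and 0 at an unadjusted p under 0.05. With 1 µg it also called 0 members (0% of all genes at each time), with 2, 0 and 2 at an unadjusted p under 0.05.

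Along the MWCNT doses at 1 month, the mean of Dnah5 was 7.10 in DM, 7.32 at 1 µg, 7.50 at 10 µg, 7.61 at 40 µg and 7.74 at 80 µg. Its slope per unit of log2(dose + 1), with dose in µg, was 0.09 ± 0.02 (adjusted p = 4.87e-05). Slopes were positive and past the test in 7 members at 1 month (2.56% of all genes): Dnah5, Cfap43, Foxj1, Rsph1, Dnah1, Dnah6 and Spag16. At 6 months Dnah5 alone was (0.06 ± 0.02, 1.18% of all genes) and at 12 months Cfap126 alone (0.07 ± 0.02, 0.591%).

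**Figure D4:**
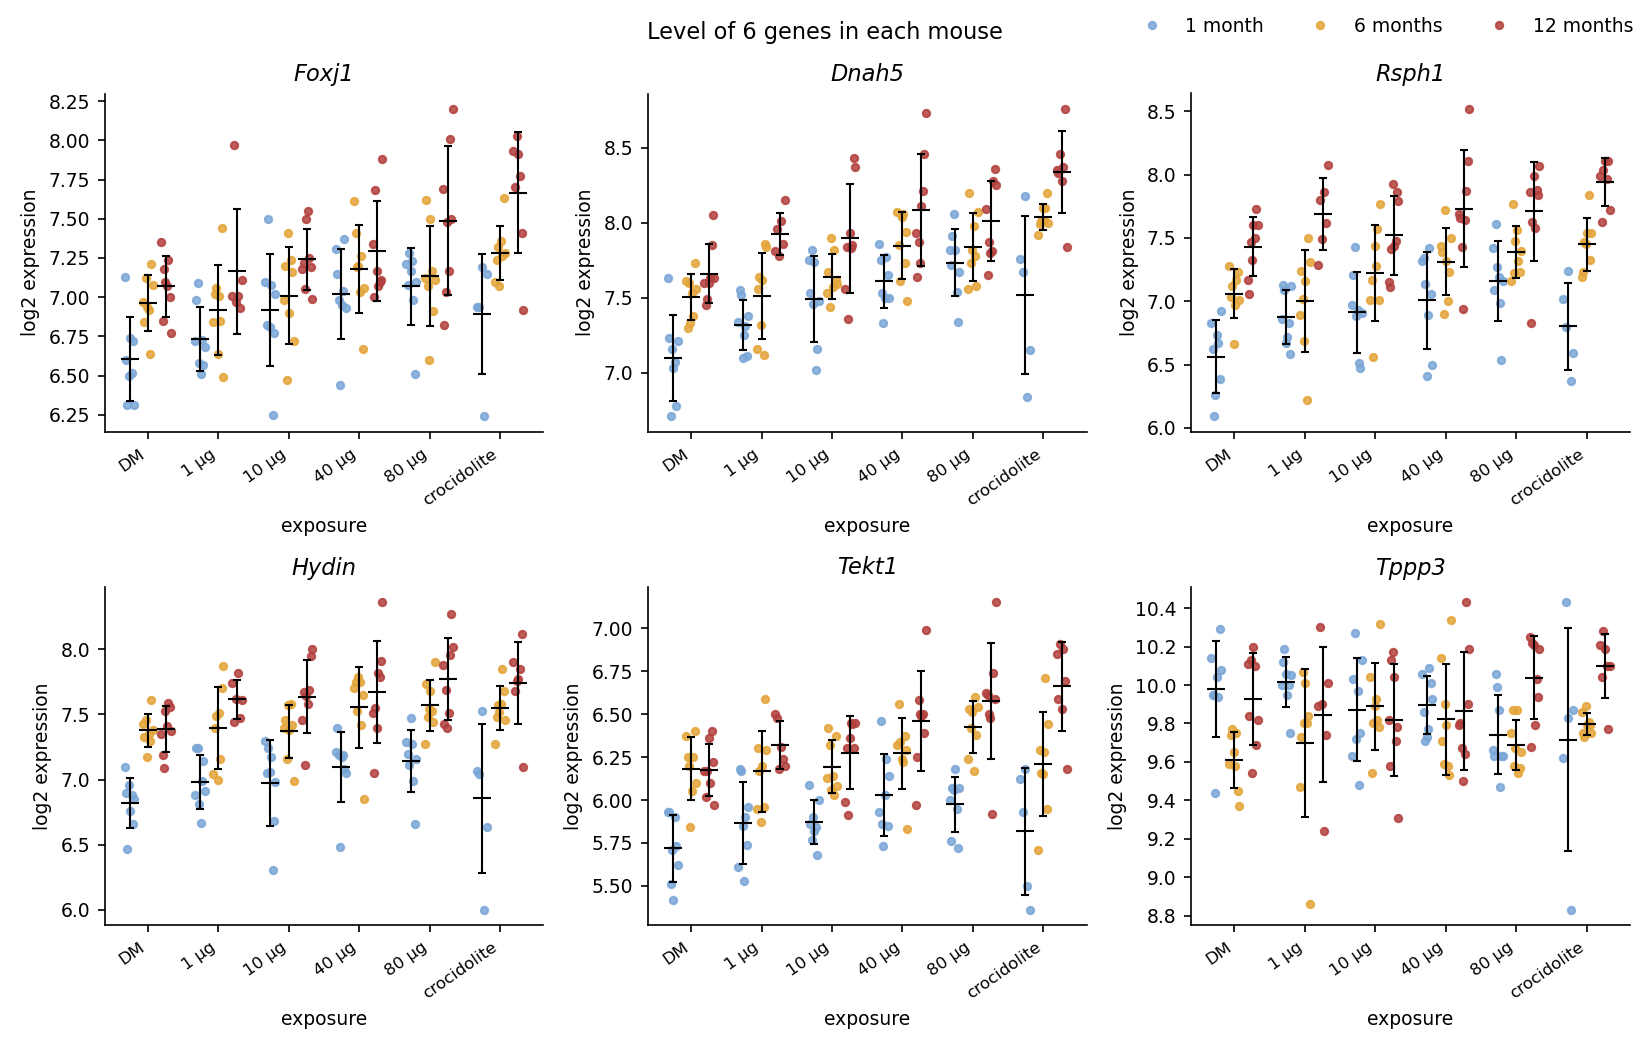
Log2 levels of Foxj1, Dnah5, Rsph1, Hydin, Tekt1 and Tppp3 in every mouse (points) by treatment and month. Dnah5 means at 1 month step from 7.10 in DM to 7.74 at 80 µg, and Tppp3 medians in DM are 10.00, 9.62 and 9.97.

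Crocidolite at 120 µg and MWCNT at 80 µg differ in material and in mass, so their levels are set side by side only. Member means in order of time were 6.15, 6.62 and 6.92 with crocidolite and 6.36, 6.60 and 6.78 with 80 µg. For 80 µg minus crocidolite limma called 0 members at each time (0.0902%, 0.0271% and 0.978% of all genes in either direction), with 8, 0 and 6 at an unadjusted p under 0.05. At 12 months the lowest difference was that of Mcidas, -0.46 ± 0.19 with a 95% interval of -0.84 to -0.08.

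Genes outside the list were counted by cell type or structure. Of 49 other axoneme and motility genes measured, 17 were higher in DM at 12 than at 1 month (median 0.48) and 45 in the exposed lungs (0.56). Of 26 other airway ciliated cell genes these numbers were 8 (0.46) and 24 (0.57), with Cdhr3, a ciliated cell cadherin, at 0.57 and 0.58. Of 27 intraflagellar transport genes 1 was higher in DM (0.22) and 25 in exposed lungs (0.28). For 7 genes of the BBSome, a cargo adaptor of cilia, the counts were 0 (0.15) and 6 (0.27), and for 18 genes of centriole amplification 0 (0.07) and 7 (0.07).

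Markers of other cells moved with some of these results. Beside the counts of lower genes, here and in the next paragraph, the share of all genes called lower is not given. Of 13 club cell genes (secretory cells of the bronchioles), 0 were higher in DM at 12 than at 1 month (median 0.02) and 7 in exposed lungs (0.14). Cyp2f2, a club cell cytochrome, differed by 0.21 ± 0.04 in exposed lungs (adjusted p = 2.72e-06) and Scgb1a1, their main secreted protein, by 0.06 (adjusted p = 0.0932). The club list mean ranged from 8.77 to 9.21 in DM at 1 month and from 8.95 to 9.15 at 12 months. Over the same time in exposed lungs, 8 of 9 alveolar type 2 genes (median -0.31) and 7 of 11 mucous cell genes (-0.28) were lower, while 2 of 6 neuroendocrine genes were higher, with Uchl1 at 0.48. In DM 2 alveolar type 2 genes were lower, and so was the squamous gene Sprr1a, by -1.77 ± 0.44 in DM and -0.96 ± 0.21 in exposed lungs. The squamous list mean ranged from 3.02 to 7.48 in DM at 1 month and from 2.72 to 3.42 at 12 months.

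With crocidolite against DM at 12 months, 4 club genes, 9 of 11 mucous cell genes (median 1.72, Muc5b 1.61 ± 0.18) and 5 of 9 alveolar type 2 genes were higher, and 8 of 10 cardiac muscle genes lower (median -1.12). The club list mean was 9.20 to 9.58 in these mice, and the mucous list mean was 6.44 to 6.86 against 4.58 to 5.07 in DM, without overlap. With crocidolite at 1 month 9 mucous cell genes were also higher (median 1.72) and 5 club genes lower, among them Cyp2f2 by -0.60 ± 0.09. The mucous list mean was 6.56 to 7.47 with crocidolite and 6.75 to 7.59 with 80 µg at 1 month, against 4.74 to 5.24 in DM. The part of these cells in the ciliary values was not tested.

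Between mice of the same group, the 39 genes varied together. Over all mice, the median correlation of deviations from the group mean was 0.59 among 741 gene pairs, with a range from -0.10 to 0.91. The mean of the remaining members correlated at 0.91 with Dnah11, 0.90 with Dnah9 and 0.88 with Dnah5, Dnaic1 and Dnah6, and at 0.65 with Foxj1. It was least with Mcidas (0.24), Tppp3 (0.28), Ccno (0.33) and Cfap126 (0.43). The points share arrays and therefore array quality. The genes outside the list most like the member mean in this measure were Cfap57 and Eno4 (0.89), Maats1 (0.88), and Nme9, Cfap70, Iqca, Drc7 and Ttc12 (0.87), each of which was higher in the exposed lungs at 12 than at 1 month, by 0.50 to 0.85.

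The same deviations correlated at 0.63 with the club list and at -0.62 with the mean of 1105 olfactory receptor genes, which lung is not known to express at high level. Without the 10 arrays of low correlation these were 0.58 and -0.44. The olfactory mean was 1.99 in DM at 1 month, 1.91 at 12 months, and 2.11 and 1.90 with crocidolite at those times. With this mean as a covariate, chosen after seeing the data, the exposed count at 12 against 1 month stayed within 35 to 36.

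**Figure D5:**
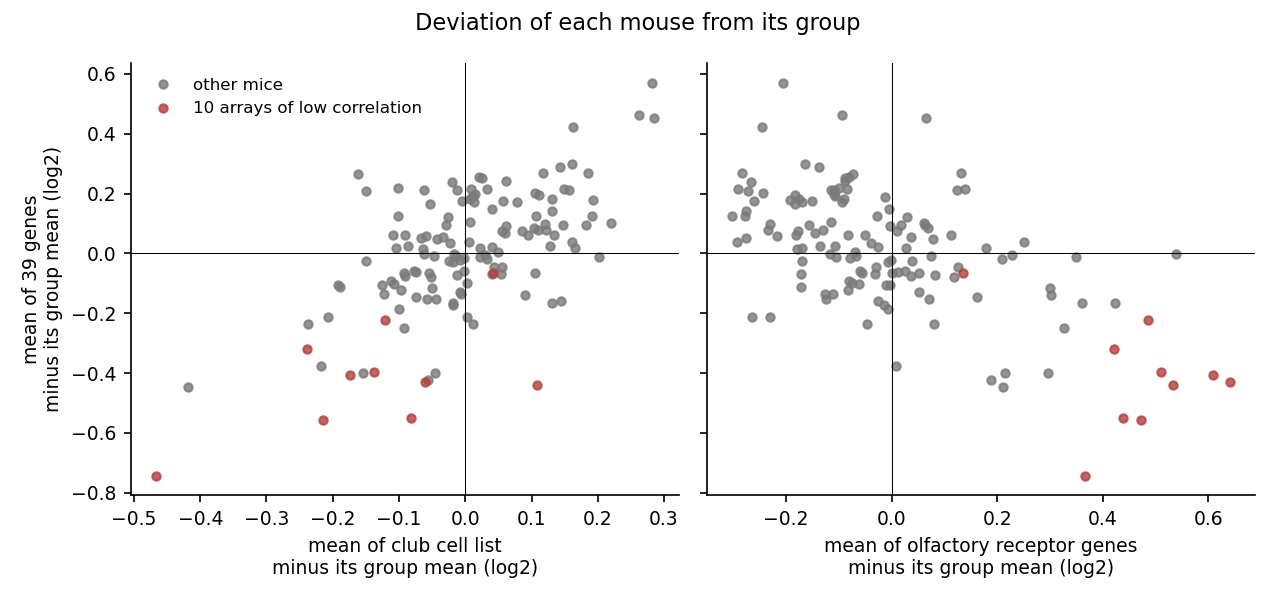
Deviation of the member mean from its group mean in each mouse (log2) against that of the club cell list and of the olfactory receptor mean, with the 10 arrays of low correlation in red. Correlations are 0.63 and -0.62 over all mice.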

How the data were processed

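Lung RNA (400 ng per array) was hybridised to Affymetrix arrays. The authors deposited log2 values. The submitters' processing notes list RMA, oligo and limma, with no version. For the genome build, nothing is given in the sources used here. Values ran from -0.04966 to 13.2758. Of 41345 features, 23521 had a single symbol in the platform annotation, 1814 several and 16010 none. Keeping the feature of highest mean set 1341 aside.

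Mice were grouped by the label giving treatment, dose and time. Mouse 101 (1 µg, 1 month) has 2 arrays (correlation 0.976), which were averaged. A linear model of group means was fitted over all mice (120 residual degrees of freedom) and moderated by empirical Bayes, using limma (version 3.58.1) in R (version 4.3.3). The data.table (version 1.17.8) and matplotlib (version 3.10.9) packages handled tables and figures. Tested on simulated data with 200 changed genes, the model recovered 58% of 1.5-fold changes for DM at 12 against 1 month, 99% for the exposed lungs and 54% for crocidolite against DM at 12 months. The number of arrays limits the precision.

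The members, gene lists and tests were chosen with earlier results of these data known. All members are placed by role. Named with values are a panel (Foxj1, Tppp3, Dnah5, Dnah9, Rsph1, Hydin, Tekt1; Ccdc39 was unmeasured), the extremes of each comparison, genes past the test, the most highly expressed of each list and the 8 non-members most like the member mean. Alternatives covered normalization, filters, array weights, array sets, covariates, features and leaving out mice.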

Additional observations from a re-analysis of the deposited data

Results flagged for a closer look

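In 144 sets of mice from 1 group (the member mean and 7 panel genes in 18 groups), 12 held a mouse far from the others by Dixon's criterion, which chance meets in about 1 in 20 sets. The member mean was 6.10 in 1 DM mouse at 12 months (nearest 6.47) and 6.06 in 1 mouse at 10 µg and 6 months (nearest 6.44), both arrays of low correlation. Foxj1 was low at 6.24 in a crocidolite mouse at 1 month (nearest 6.94) and at 6.51 in an 80 µg mouse at 1 month (nearest 6.98), and high at 7.97 in a 1 µg mouse at 12 months (nearest 7.11). Rsph1 was 6.83 in an 80 µg mouse at 12 months (nearest 7.58), and Tppp3 was 9.44 in a DM mouse at 1 month (nearest 9.94). In 1 mouse at 40 µg and 6 months Dnah9 (6.01), Hydin (6.85) and Tekt1 (5.83) were all far below the rest. Hydin was also low in a crocidolite mouse at 12 months (7.10, nearest 7.68) and in a 40 µg mouse at 1 month (6.48, nearest 7.05).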

How the results depend on the processing

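The share of all genes called under each alternative is not given. Whether a moved count is particular to the members cannot be read from these counts. Alternatives not listed may also differ from the main count. Counts of called members in the exposed lungs were 35 to 36 (12 against 1 month) and 27 to 33 (6 against 1 month) under all alternatives run. The DM count of 16 (12 against 1 month) was 26 centred on array medians, 30 with array weights, 27 with array number as a spline, 25 without the 10 arrays of low correlation, 28 without arrays high in Acta1 or Krt4, 9 with the groups alone, and 2 and 0 among arrays without and with the word replacement. For 6 against 1 month in DM (3) it was 6 centred, 5 by quantile normalization, 6 for genes above the median gene, 10 weighted, 1 with the spline, 8 with the olfactory covariate, 6 with groups alone, and 0 with the word as covariate or without its arrays. For 12 against 6 months (0) it was 2 weighted and 2 without the 10 arrays.

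For 80 µg against DM at 1 month (3) it was 5 for genes above the median gene, 10 weighted, 5 with the spline and 0 among arrays with the word. At 12 months (0) it was 3 by quantile, 1 weighted, 3 without the word and 4 with the olfactory covariate. For crocidolite at 1 month (0) it was 1 under centring, quantile, the expression filter, weights, spline, the word or olfactory covariate, and without the 10 arrays or those high in Acta1 or Krt4, and 0 to 1 leaving out each mouse. At 6 months (2) it was 5 by quantile, 4 without the 10 arrays, 1 without arrays high in Acta1 or Krt4, 5 with the olfactory covariate and 6 alone. At 12 months (11) it was 1 with and 1 without the word, and 20 with it as covariate.

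The dose trend at 1 month (7) gave 20 weighted and 2 without the word. At 6 months (1) it gave 3 weighted, 0 without the 10 arrays, and 2 with the word covariate, without the word or alone. At 12 months (1) it gave 5 centred, 10 by quantile, 2 above the median gene, 7 weighted, 4 without the 10 arrays, 2 without arrays high in Acta1 or Krt4, 3 with the word covariate, 14 without and 0 with the word, 4 with the spline and 13 with the olfactory covariate. The causes were not tested. The olfactory covariate and the use of arrays with the word alone were chosen after seeing the data.

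Reversed signs were Tppp3 in DM at 12 against 1 month (0.18 with the word, 0.01 without arrays high in Acta1 or Krt4) and in exposed lungs (-0.05 without the word), Dnah11 with crocidolite at 12 months (-0.04 without the word) and Mcidas with 80 µg at 1 month (0.00 without the word). None was called. Median differences of the members ranged from -0.04 to 0.33 for crocidolite against DM at 1 month, from 0.20 to 0.48 for 80 µg against DM at 12 months and from 0.02 to 0.08 for the trend at 12 months. For 80 µg minus crocidolite they ranged from -0.06 to 0.38, -0.11 to 0.04 and -0.32 to 0.16 in order of time, and for the exposed rise minus the DM rise from -0.09 to 0.12. In the other comparisons that were recomputed, of time and of 80 µg or crocidolite with DM, they stayed above 0. The exception was the crocidolite effect at 12 minus 1 month (-0.01 to 0.46), which was recomputed by a choice made after seeing the data. Contrasts of 1, 10 and 40 µg with DM were not among those recomputed. Their medians at 6 months were -0.06, 0.01 and 0.21 in order of dose. No paired analysis was possible because the labels give no replicate numbers that pair mice across groups. No detection call was used, so signal over background is not known for weak features.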
